A study of Rattus norvegicus with 58 samples.

Results

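Gastrocnemius, a hindlimb muscle of the calf, was set against triceps, a forelimb muscle, in the same 24-month-old male Wistar rats, the age that the study termed sarcopenic. The members were chosen by age and muscle from the sample labels: 9 gastrocnemius and 9 triceps libraries, a pair from each of rats 41 to 47, 49 and 50, or 18 of the 58 libraries. The other 40 libraries, 20 from adult rats of 8 months and 20 from early-sarcopenic rats of 18 months, served to set the 24-month difference beside that at younger ages. The labels name no treatment, all rats were of the same strain and sex, the rats of each age were different animals, and ageing was followed across animals rather than within them. Each library was polyadenylated RNA from a piece of whole muscle, so that fewer cells of a type and less RNA per cell cannot be told apart in any value below.

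Skeletal muscle fibres are kept in their adult state by the motor nerve. The nerve clusters acetylcholine receptors beneath its terminal through the receptor kinase MuSK, and its activity keeps the receptor subunits and many developmental genes low elsewhere along the fibre. When a fibre loses its nerve these genes are turned on again, while the genes of fast contraction, glycolysis and excitability are lowered; Chrna1, Musk, Ncam1, Runx1 and Gadd45a are classic genes of this response. With age, the loss of muscle and of nerve contacts does not proceed at the same pace in all muscles.

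Levels are given as CPM, a read count relative to library size, scaled by the trimmed mean of M-values (TMM CPM). Differences are gastrocnemius minus triceps within a rat on the log2 scale, from a negative binomial model fitted over all 14947 genes with enough reads. Each standard error (SE) is the size of the difference divided by the square root of the F statistic of the test below. It is therefore approximate. A gene is called when its Benjamini-Hochberg adjusted p from the quasi-likelihood test of edgeR lies under 0.05. Symbols were available for 2147 of these genes, and these had been selected by the study, on the same libraries, for a change with age that differed between the muscles. Counts over symbols are therefore no independent evidence of a direction, and each is to be read beside the shares of all symbol-bearing genes.

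Library sizes ran from 15064285 to 72297573 reads in gastrocnemius and from 13707850 to 41077568 in triceps. In each library all 8 of the 16 fibre markers that had a symbol were present, summing to between 6126 and 15580 TMM CPM in gastrocnemius and between 10432 and 28481 in triceps. The triceps library of rat 50 stood apart. The gene ENSRNOG00000016149 averaged 45.8 TMM CPM in gastrocnemius and 0.0198 in triceps at 8 months. At 24 months it stood at 0 to 0.110 in the triceps of the other 8 rats and at 4.96 in that of rat 50, which was 23.2% of the gastrocnemius value of this rat. Another gene of this kind, ENSRNOG00000016141, had 74 reads in the triceps library of rat 50 and 0 reads in the other 8. In all, 5 genes of this kind were examined. ENSRNOG00000016199 and ENSRNOG00000055918 also had their highest triceps value in rat 50, at 18 and 10 reads. ENSRNOG00000002863 did not, with 5 reads in the triceps of rat 50 and 94 in that of rat 42. Whether the triceps library of rat 50 holds RNA of gastrocnemius was not tested, and its values are to be read with that in view. Rat 42 stood apart in another way, since its triceps library held the lowest levels of several genes of fast fibres. The total calls at 24 months without either rat are given below. List counts without these rats are given only for some lists, and others also moved.

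At 24 months the muscles differed widely. Gastrocnemius was higher for 2430 genes (16.3% of those tested) and triceps for 2710 (18.1%), 5140 in all (34.4%). Differences beyond 2-fold were more often toward gastrocnemius, with 655 genes (4.38%) against 279 (1.87%). Within rats, 1013 genes were higher in gastrocnemius in 9 of 9 rats and 1128 were higher in triceps in 9 of 9. The 9 gastrocnemius and the 9 triceps values did not overlap for 232 genes (1.55%), and for 7.78% of the genes with a symbol. Without rat 50 the calls were 2043 and 2480, and without rat 42 they were 2319 and 2827. Scaling by library totals alone moved the median difference of all genes from 0.01 to 0.25 and the split to 6108 against 1082 genes, so that the share called toward gastrocnemius went from 47.3% to 85.0%. Small differences therefore depend on the scaling, and are given relative to the TMM factors.

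**Figure D1:**
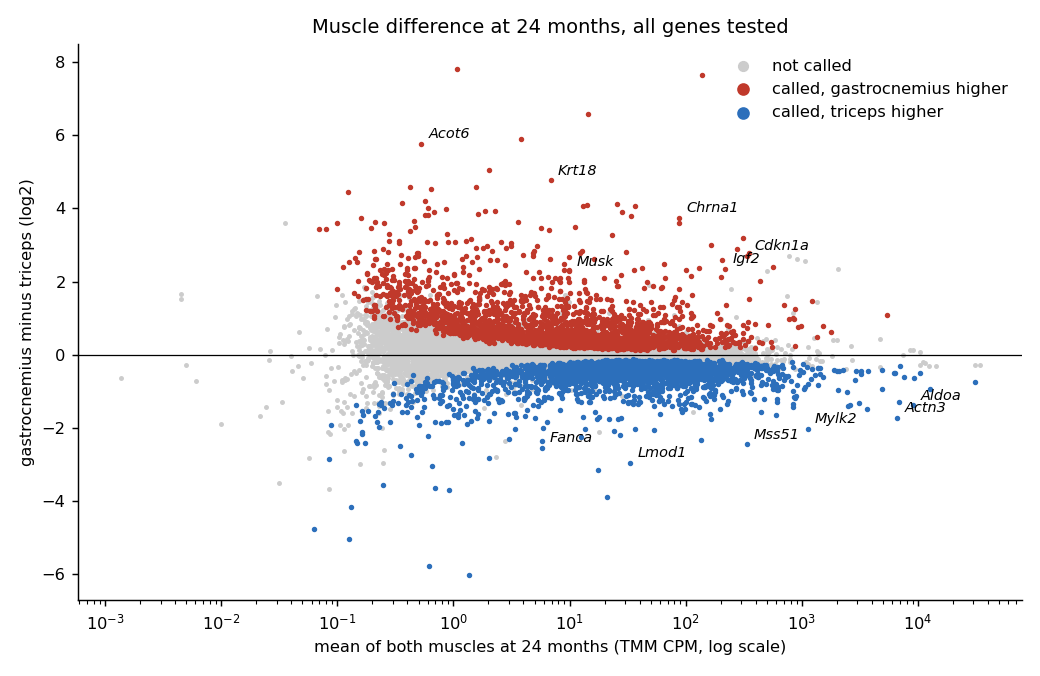
Each point is 1 gene; the x axis is its mean over both muscles at 24 months (TMM CPM, log scale) and the y axis the difference between gastrocnemius and triceps (log2), with called genes in red (2430, gastrocnemius higher) and blue (2710, triceps higher). Chrna1, Cdkn1a and Igf2 lie far above 0, and Mss51, Actn3 and Aldoa, among the more abundant genes, lie below it.

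Among genes with a symbol, of which 36.7% were called toward gastrocnemius and 51.3% toward triceps, the largest differences toward gastrocnemius that had the same sign in 9 of 9 rats were in genes nearly silent in triceps. Krt18, which codes for an intermediate filament keratin, lay between 2.85 and 24.8 TMM CPM in gastrocnemius (median 12.0) and between 0 and 1.26 in triceps (median 0.270). The muscles did not overlap, and the difference was 4.77 (SE 0.42, adjusted p = 3.21e-09). Ppp1r14c, an inhibitor of protein phosphatase 1, ran from 5.13 to 91.7 TMM CPM in gastrocnemius (median 47.3) and from 0.261 to 6.22 in triceps (median 3.09), a difference of 4.12 (SE 0.44, adjusted p = 2.72e-08). Only the lowest gastrocnemius value, 5.13, fell inside the range of the triceps. Emb, which codes for the adhesion protein embigin, differed by 4.08 (SE 0.41, adjusted p = 8.12e-09), with means of 27.0 ± 20.4 and 1.49 ± 1.31 TMM CPM (SD, n = 9 each). The p53 family member Tp73 differed by 4.58 (SE 0.62, adjusted p = 3.59e-06) and the adrenergic receptor Adra1b by 3.92 (SE 0.42, adjusted p = 2.53e-08), neither with any overlap.

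No gastrocnemius mean among the remaining members of these 10 was above the 4.29 TMM CPM of Sdr9c7. The acyl-CoA thioesterase Acot6 had 314 reads over the 9 gastrocnemius libraries and 3 over the 9 triceps libraries, a ratio of 74.0 per scaled read (95% exact interval 25.1 to 361, for the counting error alone). RGD1566226, Pde6a, Rhbdl2 and Sdr9c7 differed by 4.53, 4.19, 3.99 and 3.93, at gastrocnemius means between 1.09 and 4.29 TMM CPM. Genes without a symbol went further. ENSRNOG00000026087 ran from 41.0 to 552 TMM CPM in gastrocnemius (median 233). In triceps its median was 0.608 and its highest value, 65.5, was in rat 50. Its difference was 7.65 (SE 0.85, adjusted p = 4.29e-08), and 8.49 without rat 50.

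Toward triceps the largest differences were smaller, and included genes of the fast fibre. Lmod1, which codes for an actin filament nucleator of the leiomodin family, stood at 4.07 to 16.3 TMM CPM in gastrocnemius (median 7.19) and at 27.1 to 75.9 in triceps (median 58.8). The muscles did not overlap, and the difference was −2.95 (SE 0.24, adjusted p = 3.37e-10). Mss51, a mitochondrial protein gene of fast fibres, lay between 36.2 and 138 TMM CPM in gastrocnemius (median 105) and between 168 and 768 in triceps (median 593). Here too there was no overlap, with a difference of −2.45 (SE 0.24, adjusted p = 5.55e-09). Mylk2, the skeletal myosin light chain kinase, averaged 435 ± 105 TMM CPM in gastrocnemius and 1804 ± 534 in triceps, without overlap, a difference of −2.03 (SE 0.18, adjusted p = 1.35e-09). The water channel gene Aqp4, which marks the membrane of fast fibres, differed by −2.34 (SE 0.28, adjusted p = 1.22e-07) and the calcium-binding protein gene Cib2 by −2.08 (SE 0.24, adjusted p = 7.66e-08). Tmem132b, Fanca, Unc5a, Ubxn10 and RGD1565323 made up the rest, with differences between −2.83 and −2.03.

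Genes of the acetylcholine receptor and the neuromuscular junction were mostly higher in gastrocnemius, 9 of the 11 measured members against 2, with a median difference of 0.72. Among all genes with a symbol the shares were 36.7% and 51.3%. Chrna1 codes for the alpha subunit of the acetylcholine receptor. It ran from 22.9 to 283 TMM CPM in gastrocnemius (median 155) and from 1.72 to 33.1 in triceps (median 11.4). The ranges met through the gastrocnemius of rat 47, the lowest at 22.9, and the triceps of rat 42, the highest at 33.1. The difference was 3.74 (SE 0.48, adjusted p = 4.51e-07), and within rats it ran from 0.97 in rat 47 to 6.48 in rat 49. Musk, the kinase that clusters the receptor, ran from 7.28 to 23.9 TMM CPM in gastrocnemius (median 16.4) and from 2.16 to 8.60 in triceps (median 2.82), a difference of 2.29 (SE 0.21, adjusted p = 2.43e-09). The only triceps value inside the gastrocnemius range was the 8.60 of rat 50. Ncam1, the neural cell adhesion molecule that denervated fibres carry over their whole surface, stood at 51.5 to 190 TMM CPM in gastrocnemius (median 95.9) and 9.47 to 44.7 in triceps (median 18.9). These did not overlap, and the difference was 2.47 (SE 0.26, adjusted p = 2.49e-08). Erbb2, a receptor of the neuregulin pathway, differed by 2.70 (SE 0.23, adjusted p = 7.73e-10). The exceptions were Dlg1, a scaffold protein gene, at −0.71 (SE 0.09, adjusted p = 6.09e-07), and Ptpn11, a protein tyrosine phosphatase gene, at −0.43 (SE 0.07, adjusted p = 7.72e-06). In none of these genes did leaving out rat 42 or rat 50 change the call.

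**Figure D2:**
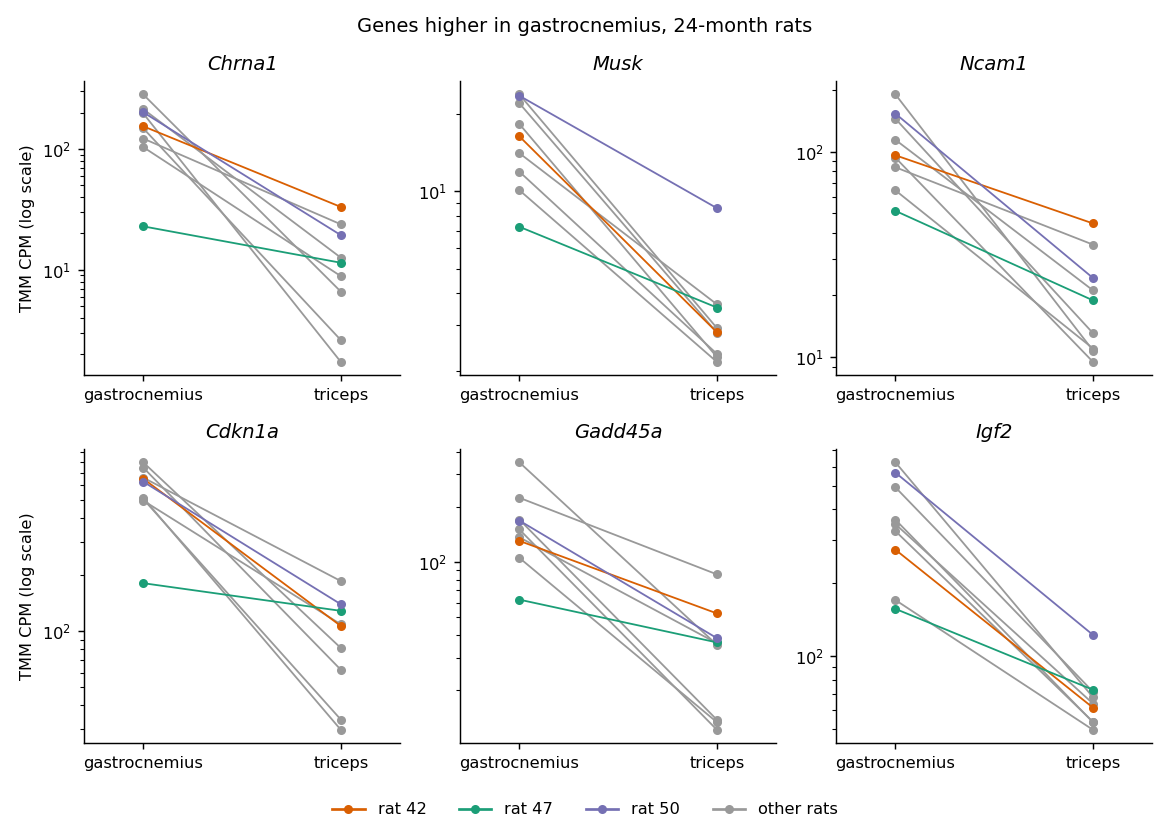
Each line joins the gastrocnemius and the triceps value of 1 rat of 24 months (TMM CPM, log scale) for 6 genes, with rats 42, 47 and 50 coloured and the other 6 rats in grey. All lines fall from gastrocnemius to triceps, and for Chrna1 the flattest is that of rat 47, at 22.9 against 11.4 TMM CPM.

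Receptor subunit genes are known to be driven by the myogenic factors, which bind E-boxes, and the windows before the starts of these genes are shown for that reason. Of the 4 members described, Chrna1, Musk and Erbb2 had an entry in the RefSeq promoter table (GRCr8) and Ncam1 did not. Each sequence below is the 250 bases before the annotated start, 5′ to 3′ on the strand of the gene, with each E-box of the form CANNTG in capitals. The form reads the same on both strands and includes CAGCTG.
Chrna1, chr3:78877354-78877603, minus strand: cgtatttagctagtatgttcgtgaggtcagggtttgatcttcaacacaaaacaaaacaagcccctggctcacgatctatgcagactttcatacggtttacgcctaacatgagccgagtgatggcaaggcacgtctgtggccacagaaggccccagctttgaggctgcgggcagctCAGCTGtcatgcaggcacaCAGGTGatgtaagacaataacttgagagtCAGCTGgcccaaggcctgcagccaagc
Musk, chr5:77853486-77853735, plus strand: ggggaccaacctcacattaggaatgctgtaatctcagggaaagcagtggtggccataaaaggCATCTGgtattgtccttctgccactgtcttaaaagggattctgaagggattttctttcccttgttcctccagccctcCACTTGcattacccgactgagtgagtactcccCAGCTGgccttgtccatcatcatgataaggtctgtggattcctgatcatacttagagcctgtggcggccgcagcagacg
Erbb2, chr10:83907351-83907600, plus strand: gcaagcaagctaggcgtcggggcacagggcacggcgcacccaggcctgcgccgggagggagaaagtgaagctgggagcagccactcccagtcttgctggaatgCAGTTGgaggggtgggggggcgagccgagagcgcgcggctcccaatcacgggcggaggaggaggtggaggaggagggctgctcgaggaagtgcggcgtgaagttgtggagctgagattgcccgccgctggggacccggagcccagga
The windows of Chrna1 and Musk each held 3 matches and that of Erbb2 held 1. At least 3 were present in 11.5% and at least 1 in 65.5% of the 33465 rat promoter windows of this length. Chrna1 held 2 copies of CAGCTG, a number reached by 1.04% of windows, and Musk held 1. These matches describe the letters of the windows and do not show binding.

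The wider denervation response followed the same direction. Of its 14 measured members 12 were higher in gastrocnemius and 2 in triceps, with a median difference of 1.67. Both counts stand beside the 36.7% and 51.3% of all genes with a symbol. Cdkn1a, which codes for the cell cycle inhibitor p21, ran from 180 to 798 TMM CPM in gastrocnemius (median 628) and from 29.6 to 185 in triceps (median 106). The ranges met at their edges only, and the difference was 2.71 (SE 0.28, adjusted p = 1.74e-08). Runx1, a transcription factor induced by loss of the nerve, differed by 2.17 (SE 0.25, adjusted p = 7.67e-08), with means of 44.9 ± 21.7 and 10.9 ± 8.81 TMM CPM. Hdac4, a deacetylase that carries the denervation signal to the nucleus, differed by 1.37 (SE 0.15, adjusted p = 4.08e-08). In the opposite direction were Fbxo40, a ubiquitin ligase subunit gene, at −0.62 (SE 0.10, adjusted p = 7.72e-06), and Hdac5 at −0.23 (SE 0.09, adjusted p = 0.0485). The call for Hdac5 was lost when any of rats 42, 43, 46, 49 or 50 was left out (adjusted p = 0.0501 to 0.11), with 4 other choices of scaling, filter and blocking (0.0507 to 0.0917), and with library totals, where the difference was 0.0013.

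Of 9 targets of p53, 8 were higher in gastrocnemius (median 1.44), where 36.7% of all genes with a symbol were called that way. This list shares Cdkn1a and Gadd45a with the denervation response, as Ncam1 stands in the lists of the junction, denervation and nerve guidance, so that their counts are not independent. Gadd45a, a growth arrest gene, ran from 62.4 to 349 TMM CPM in gastrocnemius (median 151) and from 12.2 to 85.6 in triceps (median 36.1), a difference of 2.32 (SE 0.28, adjusted p = 1.62e-07). Eda2r, the ectodysplasin A2 receptor, differed by 1.99 (SE 0.27, adjusted p = 1.11e-06), and Tp53inp1, a p53-induced nuclear protein gene, by 1.09 (SE 0.11, adjusted p = 9.82e-09) with no overlap between the muscles. Sesn1, a sestrin, was the member higher in triceps, at −0.47 (SE 0.09, adjusted p = 0.000134).

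All 6 measured imprinted genes were higher in gastrocnemius (median 0.92), beside 36.7% of all genes with a symbol. Igf2, the fetal growth factor, lay between 156 and 624 TMM CPM in gastrocnemius (median 348) and between 49.8 and 122 in triceps (median 63.8). The muscles did not overlap, and the difference was 2.34 (SE 0.20, adjusted p = 9.19e-10). Cdkn1c, which codes for the cell cycle inhibitor p57, differed by 1.63 (SE 0.20, adjusted p = 2.15e-07), also without overlap. Peg3 differed by 0.58 (SE 0.09, adjusted p = 6.61e-06) and Igf2r, the receptor that clears IGF-II, by 0.34 (SE 0.08, adjusted p = 0.00103). The list also counts a gene printed as Mir675, a microRNA that lies inside H19, and its reads cannot be told apart from those of its host.

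Genes of the mature and of the developing contractile apparatus went opposite ways. Of 10 measured genes of the mature apparatus 9 were higher in triceps and 1 in gastrocnemius, with a median of −0.83. For all genes with a symbol these shares were 51.3% and 36.7%. Actn3, the alpha-actinin of fast fibres, stood at 1082 to 4452 TMM CPM in gastrocnemius (median 3258) and at 3198 to 12949 in triceps (median 10770). The lowest triceps value, that of rat 42, was within the gastrocnemius range, and the difference was −1.72 (SE 0.22, adjusted p = 5.38e-07). Atp2a1, the fast calcium pump of the sarcoplasmic reticulum, differed by −1.47 (SE 0.17, adjusted p = 1.15e-07), Myoz1 of the fast Z-disc by −1.38 (SE 0.17, adjusted p = 3.04e-07), and Tcap, the titin cap, by −0.85 (SE 0.10, adjusted p = 1.36e-07). Klhl41, which stabilises nebulin, was higher in gastrocnemius at 0.49 (SE 0.11, adjusted p = 0.00111). Of 4 developmental genes 3 were higher in gastrocnemius. Tnnt2, the cardiac and embryonic troponin T, averaged 20.1 ± 17.1 TMM CPM against 2.21 ± 2.52 in triceps, a difference of 3.48 (SE 0.60, adjusted p = 3.22e-05). The embryonic light chain Myl4 and the perinatal heavy chain Myh8 differed by 0.85 (SE 0.18, adjusted p = 0.000449) and 0.83 (SE 0.23, adjusted p = 0.00567). Mybpc2, which is also counted among the mature genes since it codes for the fast myosin-binding protein C, differed by −1.33 (SE 0.23, adjusted p = 3e-05).

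Glycogen use and glycolysis moved nearly as 1 group, with 18 of 20 members higher in triceps, none higher in gastrocnemius and a median of −1.03. The share of all genes with a symbol called toward triceps was 51.3%. Pfkm, the muscle phosphofructokinase, lay between 618 and 2392 TMM CPM in gastrocnemius (median 1259) and between 1415 and 4565 in triceps (median 3891), a difference of −1.40 (SE 0.17, adjusted p = 1.17e-07). Aldoa, the muscle aldolase, averaged 5139 ± 2109 TMM CPM in gastrocnemius and 13083 ± 4125 in triceps, a difference of −1.37 (SE 0.15, adjusted p = 4.96e-08). Ugp2, which makes the UDP-glucose for glycogen, differed by −1.03 (SE 0.11, adjusted p = 4.84e-08). The gene printed as Gapdh differed by −1.17 (SE 0.14, adjusted p = 2.07e-07), but Gapdh has many near-identical copies and its reads may have been split among them. For 16 of the 20 members triceps was higher in 9 of 9 rats. The median difference over the list was smallest in rat 42, at −0.39, and the largest was −1.55 in rat 50.

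**Figure D3:**
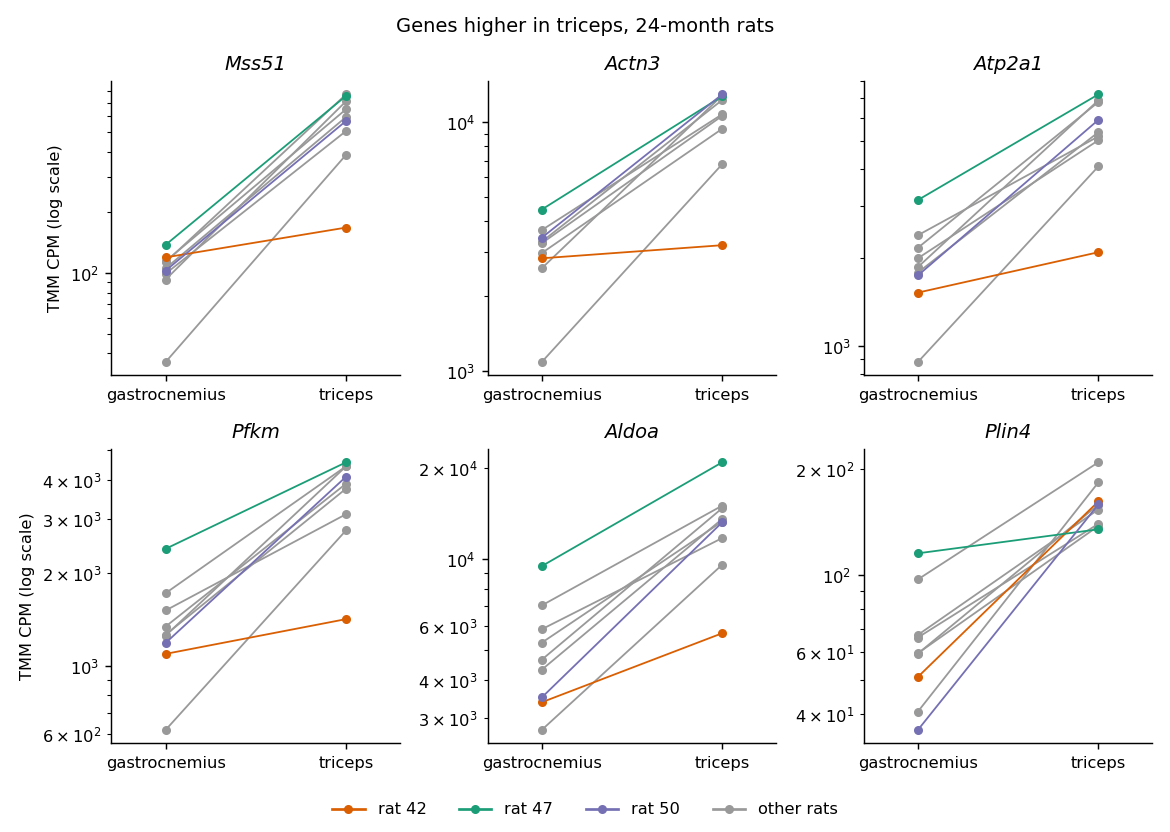
Each line joins the gastrocnemius and the triceps value of 1 rat of 24 months (TMM CPM, log scale) for 6 genes, with rats 42, 47 and 50 coloured and the other 6 rats in grey. Lines rise from gastrocnemius to triceps, least in rat 42 for Mss51 and Actn3, where its triceps values of 168 and 3198 TMM CPM were the lowest of the 9.

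Channels and transporters of excitability went both ways, 11 of 20 higher in triceps and 5 in gastrocnemius (median −0.78). Among all genes with a symbol these shares were 51.3% and 36.7%. Kcna7, a voltage-gated potassium channel, averaged 53.9 ± 22.1 TMM CPM in gastrocnemius and 143 ± 23.4 in triceps, a difference of −1.49 (SE 0.14, adjusted p = 3.94e-09). Cacng7, a calcium channel gamma subunit, differed by −1.83 (SE 0.18, adjusted p = 7.02e-09). Toward gastrocnemius stood the calcium-activated chloride channel Ano1, at a median of 31.4 TMM CPM against 9.79 in triceps, a difference of 1.52 (SE 0.15, adjusted p = 8.15e-09) without overlap. Atp1b4, a beta subunit family member of the sodium pump, differed by 1.48 (SE 0.14, adjusted p = 2.67e-09), the small-conductance potassium channel Kcnn3 by 1.26 (SE 0.17, adjusted p = 8.15e-07), the potassium channel Kcnq5 by 1.01 (SE 0.13, adjusted p = 2.55e-07) and the calcium channel subunit Cacnb1 by 0.44 (SE 0.14, adjusted p = 0.0114), a call that was lost without rat 41 (0.32, adjusted p = 0.0675).

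Genes of mitochondrial energy metabolism differed by small amounts. In oxidative phosphorylation 26 of 36 members were higher in triceps and 10 were not called, with a median of −0.36, where 51.3% of all genes with a symbol were called toward triceps. Ndufs7, a core subunit of complex I, averaged 213 ± 89.2 TMM CPM in gastrocnemius and 319 ± 73.0 in triceps, a difference of −0.66 (SE 0.11, adjusted p = 2.18e-05). The ATP synthase beta subunit gene Atp5b differed by −0.46 (SE 0.10, adjusted p = 0.000682), and the complex I genes Ndufb11 and Ndufa8 by −0.47 and −0.45. Of the 8 mitochondrially encoded members only Mt-nd1, singled out after its values were seen, was called, at −0.32. In the citric acid cycle 14 of 23 members were higher in triceps and 9 were not called (median −0.32), a count to be read beside the same 51.3%. Among those called were the isocitrate dehydrogenase subunit Idh3a at −0.57 (SE 0.10, adjusted p = 5.58e-05), the malate dehydrogenase Mdh2 at −0.52 and the aspartate-glutamate carrier Slc25a12 at −0.60. Citrate synthase, Cs, averaged 365 ± 88.5 TMM CPM in gastrocnemius and 423 ± 66.7 in triceps. These ranges overlapped widely, and the difference of −0.23 (SE 0.08, adjusted p = 0.0291) was not called without rat 41 (adjusted p = 0.069) or rat 50 (0.0888). Nor was it called with the 24-month libraries alone (adjusted p = 0.0728), no block for the rat (0.14), no filter (0.0507), upper quartile factors (0.0673) or library totals (0.991).

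These small differences depended on single rats and on scaling. Leaving out 1 rat at a time gave from 19 calls toward triceps in oxidative phosphorylation (without rat 41 or rat 50) to 33 (without rat 44), and in the citric acid cycle from 9 (without rat 41 or rat 50) to 19 (without rat 44). With library totals they numbered 7 and 4, and 1 member of the citric acid cycle was then called toward gastrocnemius. The median of oxidative phosphorylation within a rat ran from −1.01 in rat 42 to 0.18 in rat 44, so that rats differed in its sign.

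Breakdown of branched-chain amino acids gave 12 of 13 members higher in triceps (median −0.42), beside 51.3% of all genes with a symbol. Leaving out 1 rat at a time gave from 9 to 13 such calls. Within rat 45 the list median was 0.05, with 9 members higher in gastrocnemius and 4 in triceps. Pcca, a subunit of propionyl-CoA carboxylase, lay between 18.4 and 34.8 TMM CPM in gastrocnemius (median 29.1) and between 36.3 and 47.0 in triceps (median 38.9), with no overlap and a difference of −0.56 (SE 0.09, adjusted p = 7.27e-06). Dbt, a subunit of the branched-chain ketoacid dehydrogenase, also did not overlap and differed by −0.56 (SE 0.11, adjusted p = 0.00011). The leucine pathway genes Auh and Mccc1 differed by −0.51 and −0.42. Fatty acid oxidation and lipid handling gave 9 of 26 members higher in triceps, 2 higher in gastrocnemius and 15 not called. The triceps count is to be read beside the 51.3% of all genes with a symbol. The median of this list was positive in rats 44, 45 and 47 (0.03, 0.38 and 0.10) and negative in the other rats. With library totals the list median was −0.016, with 13 members on each side of 0. The lipid droplet coat genes went opposite ways. Plin4 stood at 36.0 to 115 TMM CPM in gastrocnemius (median 59.6) and 135 to 209 in triceps (median 158), with no overlap and a difference of −1.36 (SE 0.15, adjusted p = 4.02e-08). Plin2 averaged 73.5 ± 20.6 TMM CPM in gastrocnemius and 34.7 ± 10.8 in triceps, a difference of 1.09 (SE 0.14, adjusted p = 3.04e-07). The desaturase Scd2 was also higher in gastrocnemius, at 1.36 (SE 0.20, adjusted p = 4.52e-06), and Acss1, the mitochondrial acetyl-CoA synthetase, was lower, at −1.40 (SE 0.23, adjusted p = 1.79e-05).

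Matrix genes were higher in gastrocnemius, 20 of 24 members against 1 (median 0.71), beside 36.7% and 51.3% of all genes with a symbol. Adam19, a metalloprotease of developing muscle and nerve, ran from 39.4 to 148 TMM CPM in gastrocnemius (median 100.2) and from 18.7 to 32.8 in triceps (median 26.8), with no overlap and a difference of 1.84 (SE 0.17, adjusted p = 3e-09). Smoc2, a calcium-binding matrix protein gene, differed by 1.05 (SE 0.13, adjusted p = 2.07e-07) and Col6a3, a chain of collagen VI, by 0.97 (SE 0.16, adjusted p = 1.84e-05), both without overlap. Timp4, an inhibitor of metalloproteases that muscle also makes, was higher in triceps at −0.99 (SE 0.14, adjusted p = 2.09e-06). Markers of other cells did not share 1 direction. All 11 measured leukocyte and macrophage markers were called toward gastrocnemius (median 0.73), 7 of them with that sign in 9 of 9 rats. Their sum lay between 240.0 and 394 TMM CPM in gastrocnemius and between 131 and 362 in triceps. Within rats 45 and 49 the sum was higher in triceps, at 362 against 315 and 259 against 240 TMM CPM. In the other rats it was higher in gastrocnemius. Of 3 tendon and fibroblast markers 1 was called, and their sum was 1167 to 2783 against 684 to 1576 TMM CPM. Endothelial markers went the other way, 9 of 10 higher in triceps (median −0.48), with sums of 156 to 238 and 201 to 328 TMM CPM. The 2 blood markers were not called, the nerve markers were represented by Cnp alone, a myelin enzyme gene, at 1.45, and no fat marker had a symbol. The part of these cells in the results was not tested.

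Cell division genes were higher in gastrocnemius in 38 of 42 members (median 1.31), beside 36.7% of all genes with a symbol. Levels were low. The list summed to between 81.2 and 129.8 TMM CPM in gastrocnemius and between 71.7 and 95.7 in triceps. Top2a, the topoisomerase of dividing cells, lay between 2.03 and 5.01 TMM CPM in gastrocnemius (median 2.63) and between 0.276 and 1.84 in triceps (median 0.836), a difference of 1.86 (SE 0.27, adjusted p = 2.26e-06) without overlap. Aspm, a spindle protein gene, differed by 1.27 (SE 0.21, adjusted p = 2.51e-05) and the cell cycle phosphatase Cdc25a by 0.92 (SE 0.13, adjusted p = 1.14e-06). Fanca, of the Fanconi anaemia repair complex, ran the other way, from 1.05 to 2.92 TMM CPM in gastrocnemius (median 1.31) and from 2.66 to 23.3 in triceps (median 9.34), a difference of −2.53 (SE 0.41, adjusted p = 1.36e-05). Espl1, separase, was also higher in triceps, at −0.88 (SE 0.25, adjusted p = 0.00729).

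Genes of nerve growth and guidance were divided, 11 of 20 higher in gastrocnemius and 8 in triceps (median 0.39). These counts stand beside 36.7% and 51.3% of all genes with a symbol. Beside Ncam1, the semaphorin receptor Plxna3 differed by 0.97 (SE 0.12, adjusted p = 1.84e-07) and the receptor phosphatase Ptprd by 0.79 (SE 0.10, adjusted p = 3.23e-07). In triceps the netrin receptor Unc5a was higher, at 3.24 to 16.3 TMM CPM (median 8.93) against 0.875 to 3.86 (median 1.65), a difference of −2.36 (SE 0.23, adjusted p = 4.78e-09). The secreted protein gene Lgi2 differed by −1.72 (SE 0.25, adjusted p = 2.91e-06), the semaphorins Sema7a and Sema3g by −1.62 and −0.62, and the adhesion protein gene Nfasc by −0.61. Among neurotrophic ligands, Ntf4 (neurotrophin-4) differed by −1.21 (SE 0.15, adjusted p = 4.42e-07) and Nrtn (neurturin) by −1.22 (SE 0.29, adjusted p = 0.00149), and Gfra4, a receptor of the GDNF family, by −1.26 (SE 0.25, adjusted p = 0.000237), with no mean above the 3.30 TMM CPM of Ntf4 in triceps.

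Atrophy and protein breakdown was no uniform group either, with 13 of 21 members higher in triceps and 7 in gastrocnemius (median −0.43). Of all genes with a symbol 51.3% and 36.7% were called in these directions. The ubiquitin ligase adaptors Asb11, Asb10 and Asb4 differed by −1.49 (SE 0.15, adjusted p = 9.82e-09), −1.16 (SE 0.13, adjusted p = 5.74e-08) and −1.16 (SE 0.15, adjusted p = 4.24e-07), and the transcription factor Foxo4 by −0.87 (SE 0.09, adjusted p = 2.97e-08). Toward gastrocnemius stood the myostatin antagonist Fst, at 13.4 to 33.1 TMM CPM (median 19.7) against 3.12 to 8.48 (median 4.94), a difference of 1.98 (SE 0.25, adjusted p = 4.75e-07) without overlap. The ubiquitin ligase Fbxo30 differed by 1.09 (SE 0.15, adjusted p = 1.02e-06), and the lysosomal proteases Ctsk, Lgmn and Ctsb by 0.76, 0.63 and 0.38. Of 16 growth factor and stem cell genes 10 were higher in gastrocnemius and 4 in triceps (median 0.49). Beside Igf2, the satellite cell receptor Megf10 differed by 1.07 (SE 0.14, adjusted p = 4.51e-07) without overlap and Hes6, a partner of myogenic differentiation, by 0.97 (SE 0.12, adjusted p = 3.25e-07). Nog (noggin), the homeobox gene Barx2, Eya1 and the Wnt receptor Fzd7 were higher in triceps, by −1.21, −1.12, −0.85 and −0.67.

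**Figure D4:**
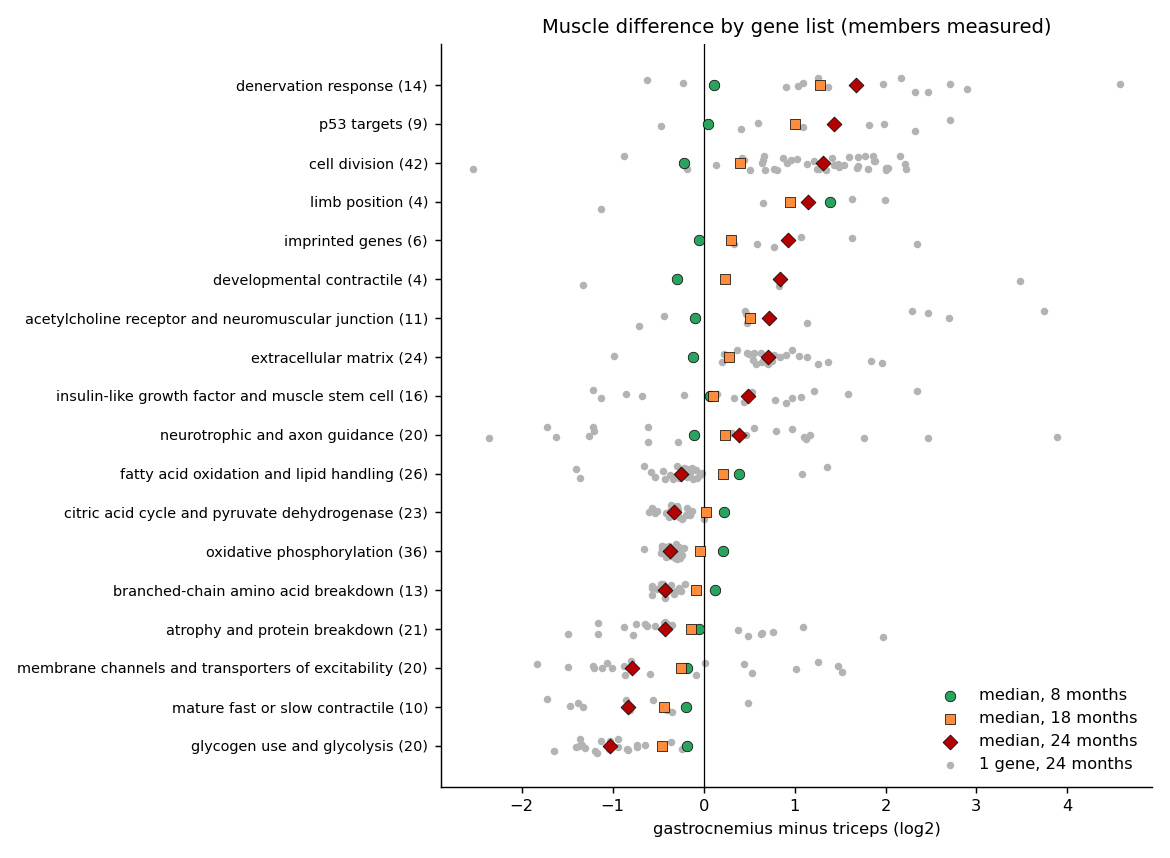
Each row is a gene list with its number of measured members; grey points are the members' differences between gastrocnemius and triceps at 24 months (log2), and coloured symbols are the list medians at 8, 18 and 24 months. The median of the denervation response goes from 0.12 through 1.28 to 1.67, and that of oxidative phosphorylation from 0.22 through −0.04 to −0.36.

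Of 4 measured genes of limb position 2, Hoxd8 and Hoxd9, were higher in gastrocnemius at each of the 3 ages, and Barx2 was higher in triceps at 18 and 24 months. Hoxd9, a homeobox gene of limb patterning, stood at 8.89 to 14.5 TMM CPM in gastrocnemius and at 0.993 to 6.05 in triceps at 24 months, without overlap, and differed by 1.99 (SE 0.24, adjusted p = 1.59e-07), beside 2.65 at 18 months and 3.19 at 8 months. Hoxd8 differed by 1.63 (SE 0.19, adjusted p = 1.06e-07), beside 2.29 and 2.54. The highest triceps values of both at 24 months were those of rat 50. Their smaller differences at that age are to be read with this in view. Zic4 differed by 0.65 (SE 0.43, adjusted p = 0.251) and was not called. Among genes without a symbol, ENSRNOG00000001399 stood at 0.595 to 1.67 TMM CPM in triceps and at 0 to 0.127 in gastrocnemius, a difference of −5.78 at 24 months, and the differences at 18 and 8 months were −5.45 and −5.53. ENSRNOG00000013670 gave −3.64, −3.33 and −3.51 in the same order, and ENSRNOG00000016149 gave 6.59, 9.11 and 10.56. Without rat 50 the 24-month difference of ENSRNOG00000016149 was 9.90, between the values of the other ages.

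The number of genes that differed between the muscles was 622 at 8 months (4.16% of those tested), 2692 at 18 months (18.0%) and 5140 at 24 months. Of the 24-month calls 40.1% were called at 18 months and 6.32% at 8 months in the same direction. Conversely, 52.3% of the 8-month calls and 76.6% of the 18-month calls were called at 24 months in the same direction, and 304 genes were called in 1 direction at all 3 ages. The difference itself changed from 8 to 24 months for 2159 genes (14.4%), and of the 5140 genes 1925 were among these. Of the 1925, the size of the difference was larger at 24 months for 1904. A call at 24 months and a changed difference together favour a larger size at that age. The 1904 are therefore no independent evidence of a widening. From 18 to 24 months no gene passed in edgeR (lowest adjusted p = 0.0627), with 1827 genes at an unadjusted p under 0.05, while DESeq2 called 121 and limma voom 4. Leaving out rat 47 gave 139 calls in edgeR.

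The lists are given next by their calls at each age. The test of 18 against 24 months called no gene in edgeR, so that a call at 1 of these ages alone does not show that the difference changed. Of the genes with a symbol 3.4% were called toward gastrocnemius and 3.54% toward triceps at 8 months, and 18.4% and 20.1% at 18 months. In the denervation response 11 members were called toward gastrocnemius at 18 months and 0 at 8 months, against 12 at 24 months. In glycolysis 14 members were called toward triceps at 18 months and 0 at 8 months, against 18 at 24 months. At 8 months 1 denervation member was called toward triceps and 1 glycolysis member toward gastrocnemius. The matrix had 4 members called toward gastrocnemius at 18 months and cell division 6, against 20 and 38 at 24 months. At 8 months both had 0, and 3 matrix members were called toward triceps. Oxidative phosphorylation had 3 members called toward gastrocnemius at 8 months, fatty acid oxidation 11 and the citric acid cycle 2. At 18 months these were 0, 4 and 1, and members called toward triceps were 2, 1 and 0. The median difference of fatty acid oxidation went from 0.38 through 0.22 to −0.25. These changes concern genes that the study had picked for such a pattern, and the ages share 1 estimate of the spread but no rats.

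**Figure D5:**
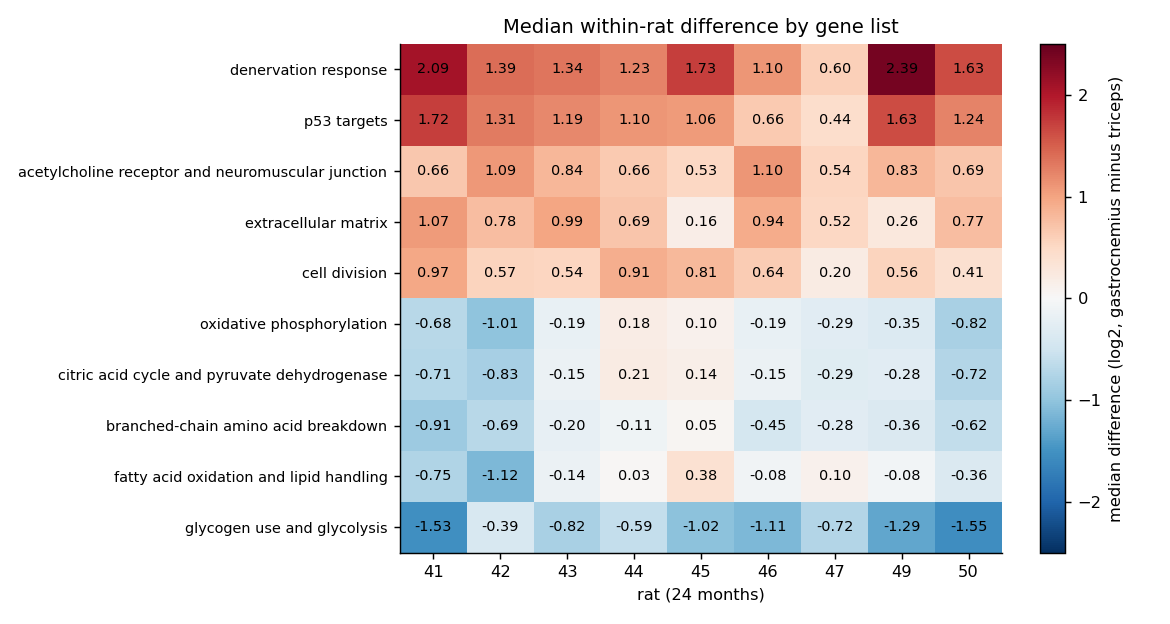
Each cell is the median within-rat difference between gastrocnemius and triceps (log2) over the measured members of a gene list, with rats of 24 months in columns and 10 lists in rows, red for gastrocnemius higher and blue for triceps higher. The denervation row is positive in all 9 rats, from 0.60 in rat 47 to 2.39 in rat 49, and the glycolysis row is negative in all 9, while the oxidative phosphorylation row changes sign between rats.

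The 9 rats differed in how far their muscles were apart. The median absolute difference over the 12712 genes that averaged 1 TMM CPM or more ran from 0.23 in rat 44 to 0.34 in rat 41. The share of genes apart by more than 2-fold ran from 3.76% in rat 47 to 11.2% in rat 41. Rat 47 also had the smallest within-rat differences of Chrna1 (0.97), Musk (0.95), Cdkn1a (0.49) and Igf2 (1.10). Over the 9 rats the differences of Chrna1 and Musk went together, with r = 0.84 (exact two-sided permutation p = 0.00543, adjusted 0.0217 over 4 relations) and rho = 0.82 (exact permutation p = 0.0108, adjusted 0.0431). Without rats 47 and 49, the farthest from the median of Chrna1, r was 0.66 and rho 0.61, and r was no longer past the threshold (exact permutation p = 0.109, 7 rats), so that the relation could not be shown without these rats. For Chrna1 and Cdkn1a, r was 0.60 (exact permutation p = 0.0869, adjusted 0.174) and rho 0.53 (exact permutation p = 0.148, adjusted 0.295), and r without these rats was 0.30. For Chrna1 and Igf2, r was 0.41 (exact permutation p = 0.281, adjusted 0.375) and rho 0.43 (exact permutation p = 0.25, adjusted 0.333), and r without these rats was −0.28. For Chrna1 and Cs, r was 0.03 (exact permutation p = 0.935, adjusted 0.935) and rho 0.07 (exact permutation p = 0.88, adjusted 0.88), and r without these rats was 0.05. The differences of a rat share its 2 libraries and their scaling factors.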

How the data were processed

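RNA of gastrocnemius and triceps was sequenced as polyadenylated TruSeq libraries. The authors aligned reads with STAR 2.3.0e to Rnor_6.0 after CASAVA 1.8 and counted them per Ensembl gene with HTSeq, per the labels, and deposited raw read counts of 32545 genes in 58 libraries from 29 rats. Symbols came from a gene list of the study whose text was read from page images, so that single symbols may be misread; 1960 were found in RefSeq, symbols printed for more than 1 gene were left out, and 2147 genes kept a symbol. The 14947 genes that reached 20 reads in any library were fitted with edgeR 4.0.16 (quasi-likelihood, TMM factors) in R 4.3.3, with a term for each rat and a muscle difference for each age. The labels give both muscles of a rat the same number, which is the pairing. Deviations of the 2 muscles of a rat from the group means correlated at 0.27 on average at 24 months, against −0.03 between rats, and at −0.09 in rat 45. The highest value, 0.515, was that of rat 50, whose triceps library stood apart. For 3 of the 9 gastrocnemius libraries the triceps library that correlated best was that of the same rat. The pairing therefore rests on the labels. Chi-square per degree of freedom between libraries of the same muscle at 24 months was at least 18.8. None of these was therefore a copy of another of its muscle. Pairs across muscles and libraries of the younger ages were not compared. The within-rat relations used log2(TMM CPM + 0.5).

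The members and lists were chosen with earlier results of these data known. Named genes were the 10 largest differences in each direction with a symbol and 2 without (adjusted p under 0.05, at least 1 TMM CPM, the same sign in 9 rats), the 4 members of lowest p in each of 18 lists, members called against their list, and Chrna1, Musk, Cdkn1a, Igf2 and Cs. Some genes that this rule names are not reported here. The alternatives were DESeq2 1.42.0, limma voom 3.58.1, other scaling factors and filters, other thresholds, the 24-month libraries alone, no term for the rat, and each rat left out. The script was tested on simulated data. Promoter windows were read from RefSeq (GRCr8), a build other than that of the counts. Intervals cover counting error only.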

Additional observations from a re-analysis of the deposited data

Results flagged for a closer look

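Among the 116 genes chosen for description, the within-rat difference at 24 months (log2, gastrocnemius minus triceps) of 1 rat stood far from the other 8 for 8 genes. A rat was taken to stand apart where its gap to the nearest other rat, divided by the range of all 9, was above Dixon's 95% critical value. Chance passes this for about 1 in 20 genes, which is near the share found here, and the genes are not independent, since many were chosen for 1 sign in 9 of 9 rats. Rat 42 was the rat that stood apart for 5 of them. Its difference for Mss51 was −0.49, against −3.39 to −2.34 in the others, for Unc5a −0.58 against −2.77 to −1.94, and for Cib2 −0.27 against −2.73 to −1.57. For Actn3 it was −0.18 against −2.65 to −1.52, and for Cacng7 −0.71 against −2.21 to −1.52. In rat 47 the difference for Ntf4 was 0.058, against −1.36 to −0.75, and for Fzd7 0.0066 against −0.95 to −0.58. In rat 50 the difference for ENSRNOG00000016149 was 2.00, against 5.48 to 6.18, since its triceps library held 4.96 TMM CPM of this gene.

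The difference between the muscles changed from 8 to 24 months for 2159 genes by the interaction test of edgeR. Of the genes named without a symbol, ENSRNOG00000026087 changed, by 4.13 toward gastrocnemius. Genes with a symbol are not listed for this, since the study had picked them for that contrast.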

How the results depend on the processing

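With thresholds of adjusted p under 0.01, or of 2-fold at 0.05, 3412 and 934 genes were called at 24 months in place of 5140. Library totals without factors gave 6108 and 1082 calls toward gastrocnemius and triceps (1077 and 158 beyond 2-fold), and fewer triceps calls in oxidative phosphorylation (7), the citric acid cycle (4), fatty acid oxidation (4) and branched-chain amino acid breakdown (7). They also took the difference of Hdac5 to 0.0013 and gave Cs at −0.0012 (adjusted p = 0.991). The main fit pairs the muscles by rat. With no replicate block for the rat, 1406 genes changed from 8 to 24 months, 286 differed at 8 months, and oxidative phosphorylation and the citric acid cycle had 12 and 8 triceps calls, while at 24 months 2047 and 2398 genes were called. With the 24-month libraries alone the citric acid cycle had 9. From 18 to 24 months DESeq2 called 121 genes, limma voom 4, library totals 5 and no filter 4, against 0.

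Leaving out each rat in turn gave 4399 to 5192 calls at 24 months, 0 to 139 from 18 to 24 months and 1695 to 2526 from 8 to 24 months, and 9 to 19 triceps calls in the citric acid cycle. The relation of Chrna1 and Igf2 turned to −0.28 without rats 47 and 49, and that of Chrna1 and Cs to −0.00077 with a pseudocount of 2. Over the 116 named genes, 2069 of their values under the alternatives kept direction and side of the threshold, 18 lost the call and 1 reversed, Hdac5. The causes were not tested. Depth limits the genes of cell division, many of which lie under 1 TMM CPM.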
